A study of Rattus norvegicus with 6 samples.

Results

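The depleted autosomal regions are stretches of the rat genome in which a 4C-seq viewpoint on chromosome 13 captured clearly fewer restriction fragments than its average on the same chromosome, in each of 6 libraries. A row, which stands for 1 EcoRI fragment, was a member when it lay on chromosomes 1 to 20 except 13 and its deposited score was -3 or less in every library. The rule found 30029 rows of the 712487 on these chromosomes (4.21%), out of 759990 rows outside chromosome 13. Adjacent member rows were merged into 196 domains. Because the scores chose the rows, low scores and low capture are given below as a description, without a test.

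The cells were cardiac endothelial cells at passage 2, pooled from males and females, and fixed for 10 min in 2% formaldehyde. There were 3 libraries from the strain SS-13BN/Mcwi, called SS13BN here, and 3 from SS/JrHsdMcwi, called SS. SS13BN is a consomic strain that carries chromosome 13 of the Brown Norway rat on the Dahl salt-sensitive SS background, so the autosomes examined here come from SS in both strains. Nothing in the labels states separate animals or cultures for the libraries of a strain. A p-value here thus reflects library-to-library spread, possibly technical.

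In 4C-seq, fixed chromatin is cut and joined again, and whatever was joined to a single viewpoint is amplified and read. Contacts with other chromosomes are sparse, so they are usually scored over a running window of many fragments. A window scores low when its region meets the viewpoint less often than the rest of its chromosome does, and also when its fragments cannot be read back to a single place in the genome, as in tandem repeats such as satellite DNA. How much either enters the values below was not tested.

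Each deposited score compared the captured fragments in a window reaching 250 fragments to either side with the number that the captured share of the chromosome gives, in units of the binomial standard deviation. A captured fragment is taken here to have at least 1 read, but the scores do not show how many reads were required. The captured state of each fragment was recovered from the scores, and in every library these states gave back 100% of the deposited windows. The libraries captured 75366, 132426 and 66610 fragments outside chromosome 13 in SS13BN 1, 2 and 3, and 93838, 75942 and 90358 in SS 1, 2 and 3. The scale of the score follows this depth. On the chromosomes examined, a score of -3 was reached at 0.669 to 0.745 times the expected number in SS13BN 2, the deepest library, and only at 0.511 to 0.618 times in SS13BN 3, the shallowest.

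The score is not comparable at chromosome ends. Windows within 250 fragments of an end ran past it and held fewer fragments, while the expectation stayed that of a full window. Of 9500 rows in such cut windows, 3095 were members (32.6%), against 26934 of 702987 rows in full windows (3.83%). All 30 domains with rows in cut windows reached 1 of the 38 chromosome ends. With the expectation set to the fragments present, an alternative added after seeing the data, 2152 of the 3095 rows no longer scored -3 or less, and 25 of the 30 end domains had no row left. These 25 had 2 to 200 rows.

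**Figure D1:**
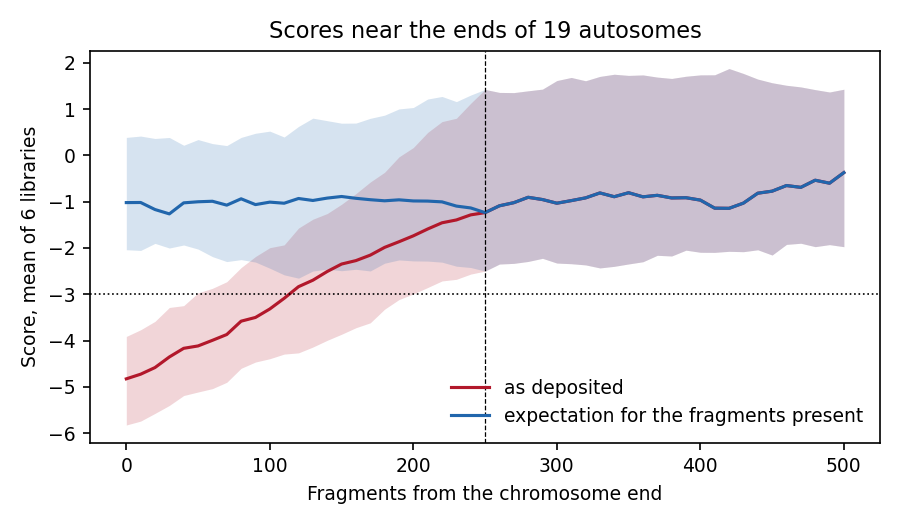
Score by distance from the chromosome end, in fragments, over the 38 ends of 19 autosomes. Lines are the median and bands the quartiles over ends of the mean of 6 libraries. The red line is the score as deposited and the blue line uses the expectation for the fragments present. The dotted line marks -3 and the dashed line the distance of 250 fragments. The deposited median was -4.83 at the end itself, and -1.02 with the expectation for the fragments present.

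The label fits the inner domains better than the end domains. Capture relative to the chromosome was 0.231 ± 0.00986 (SD, n = 6 libraries) in the 166 domains that did not reach an end, which held 26527 rows. It was 0.347 ± 0.0395 in the 5 end domains that kept rows and 0.587 ± 0.0668 in the 25 that kept none. The 5 end domains that kept rows were chr1:0-2934762, chr3:0-570383, chr12:0-402232, chr14:0-1272439 and chr10:110874949-112200500. Their rows left at -3 or less numbered 261 of 317, 145 of 261, 115 of 219, 430 of 430 and 399 of 399. All coordinates are on build rn5 as the tables give them, where intervals are closed and the first starts at 0. In chr1:0-2934762, 1 row of 1875978 bases makes up most of the length.

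Over all members, 2.54%, 4.59% and 2.35% of the fragments were captured in SS13BN 1, 2 and 3, and 3.40%, 2.65% and 3.37% in SS 1, 2 and 3. The 95% Wilson intervals ran from 2.18% to 4.83% over the libraries, and they cover counting error only. The other rows of the same chromosomes had 10.4%, 18.3% and 9.19% captured in SS13BN 1, 2 and 3, and 12.96%, 10.5% and 12.5% in SS 1, 2 and 3. The ratio of members to other rows was 0.243, 0.251 and 0.256 in SS13BN and 0.262, 0.253 and 0.270 in SS. It thus varied little between libraries although their depth did.

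Single libraries had -3 or less in 11.2%, 15.4% and 7.07% of autosomal rows in SS13BN 1, 2 and 3, and in 12.01%, 9.98% and 10.6% in SS 1, 2 and 3. Median member scores were -5.04, -7.04 and -4.60 in SS13BN 1, 2 and 3, and -5.59, -4.97 and -5.38 in SS 1, 2 and 3. The lowest member score was -10.3, in SS13BN 2. The library with the highest of the 6 scores, which decides membership, was SS13BN 3 in 17010 members (56.6%) and SS13BN 2 in only 69. At the threshold, 4189 member rows had a highest score between -3.25 and -3, and 6148 rows outside the rule had one between -3 and -2.75.

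The same measure was read in libraries that a choice had not used. The 3 SS13BN libraries all scored -3 or less in 36544 rows (5.13%), and 82.2% of these did so in all 3 SS libraries, against a background of 5.8% of rows. Every one of these 36544 rows was below 0 in all 3 SS libraries, against 39.8% of all autosomal rows. The 3 SS libraries all scored -3 or less in 41325 rows (5.8%), and 72.7% of these did so in all 3 SS13BN libraries, against a background of 5.13%. Of the 41325 rows, 99.9% were below 0 in all 3 SS13BN libraries, and 43 were above 0 in SS13BN 3 and 1 in SS13BN 1. Restricted to full windows, the shares were 81.8% and 71.2%.

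Most rows chosen by 5 libraries were also low in the library left out. With SS13BN 1, 2 and 3 left out in turn, 94.5%, 99.9% and 82.3% of the chosen rows scored -3 or less in that library. Of all autosomal rows, 11.2%, 15.4% and 7.07% did. With SS 1, 2 and 3 left out, 97.1%, 93.0% and 95.9% of the chosen rows did, against 12.01%, 9.98% and 10.6% of all autosomal rows. Rows in cut windows, where the deposited score is lowered in every library, were included. The share of chosen rows was lowest for SS13BN 3, which captured the fewest fragments. Neighbouring rows share most of their window, so rows are not replicates and these shares carry no p-value.

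The domains ranged from 1 to 2946 rows, with a median of 37 and quartiles of 9 and 150. In length they ranged from 0.997 to 4495 kb, with a median of 102 kb. Together they covered 79.4 Mb, 3.02% of the 2629 Mb of the 19 autosomes. The 60 domains of at least 100 rows held 88.4% of the member rows, while 52 domains had fewer than 10 rows and 6 had 1 row. The 22 domains of at least 1 Mb held 45.7 Mb.

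Many domains lay close to another. Of 177 gaps between neighbouring domains of a chromosome, 93 held fewer rows than a scoring window and 39 were shorter than 10 rows. The median gap was 572 kb, with quartiles of 35.0 kb and 17033 kb. The shortest gap was 185 bases, before chr2:579525-687584, and the longest was 125 Mb, on chromosome 4 before chr4:158215772-158350863. That gap holds the single row chr4:67977592-133127611 of 65.2 Mb, and was 60.1 Mb without it. It was 1 of 12 autosomal rows over 1 Mb, whose origin in the table could not be checked here. With these 12 rows left out of lengths, an alternative added after seeing the data, the longest gap was 120 Mb, on chromosome 6, the median gap stayed at 572 kb and the domains covered 77.5 Mb, 3.11% of 2495 Mb. Merging across gaps shorter than a scoring window left 103 clusters, 63 of them with a single domain. The cluster with the most domains, 12, was chr1:60843038-66661943, where 1016 of 2201 rows were members over 5.82 Mb. Clusters of one chromosome lay a median of 19.4 Mb apart, with a range of 1.76 to 125 Mb, or 16.9 Mb with a range of 1.76 to 120 Mb without the 12 long rows.

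Depleted rows were spread unevenly over the chromosomes. Chromosome 1 held 8236 member rows in 39 domains, 27.4% of all members against 11.7% of all rows. Chromosome 12 had the highest share of its own rows depleted, 13.1%, in 10 domains, followed by chromosome 1 with 9.85%, chromosome 17 with 6.71% and chromosome 15 with 6.56%. Chromosome 9 had the lowest share, 0.330%, and chromosome 20 had 1.16%. On those chromosomes almost all members lay at the ends, with 8 of 115 and 19 of 170 member rows in full windows. Since the expectation was that of the chromosome itself, these shares describe unevenness within each chromosome and not its overall level.

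**Figure D2:**
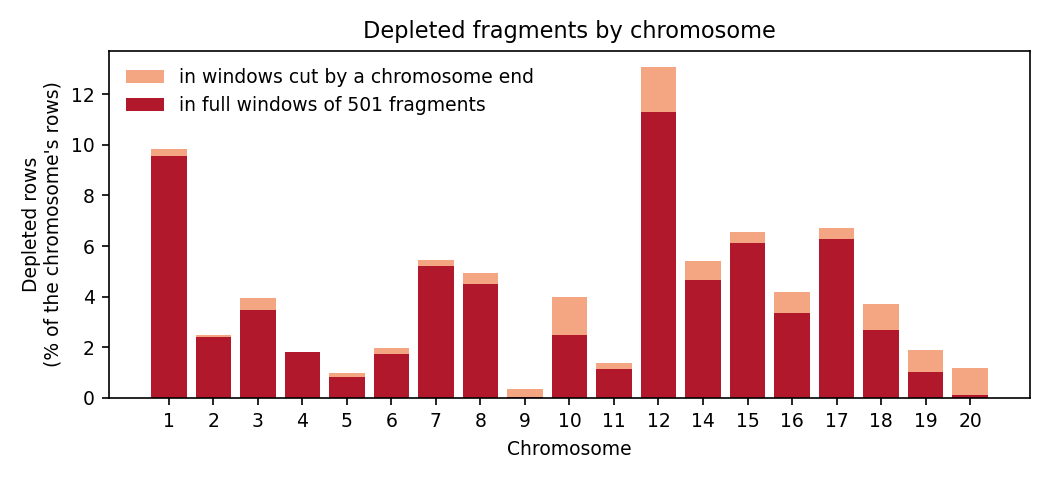
Share of each chromosome's rows that were depleted in all 6 libraries, in percent. Dark bars are members in full windows and light bars add those in windows cut by a chromosome end. Chromosome 12 reached 13.1% and chromosome 1 reached 9.85%, while chromosomes 9 and 20 had almost no members in full windows.

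The rule did not use row length, taken as end minus start, directly. Row length is not independent of the rule, however, because the expectation ignored it and capture outside the members varied with it. Row length below 100 bases went with 4.30% captured in other rows, against 16.7% between 4000 and 8000 bases. Its median was 1114 bases in members (quartiles 184 and 3141) and 2255 bases in other rows (quartiles 857 and 4768). The median was lower in members on 18 of the 19 chromosomes. Chromosome 20, where most members lie at an end, was the exception, with 2434.5 bases in members and 2431 in other rows. Rows under 400 bases made up 36.2% of members and 14.3% of other rows. Lengths belong to the genome table and not to a library, so no test over libraries applies.

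A few recurring lengths were far more common in members than in other rows. The commonest lengths in members were 91 bases, with 1939 rows, and 92 bases, with 1471 rows, which are fragments of 92 and 93 bases when both end positions are counted. Of all autosomal rows of 91 bases, 81.0% were members, and of those of 92 bases 77.9% were. Rows of 184 and 183 bases, about as long as a pair of such units, numbered 505 and 328 in members, 63.4% and 59.0% of all rows of these lengths. The commonest length among other rows, 82 bases, made up 1.61% of members and 1.14% of other rows. As background, the rat has a centromeric satellite built of tandem units of 92 and 93 bases. No rn5 sequence was used here, so whether these rows are that satellite was not tested.

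**Figure D3:**
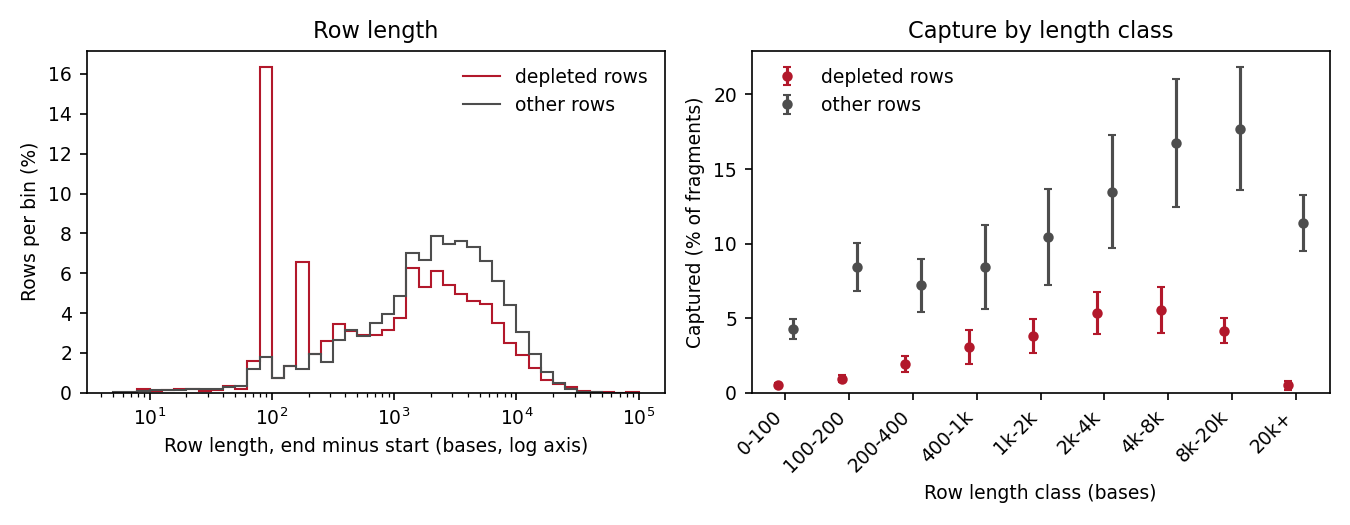
Left: distribution of row length (end minus start, log axis) as percent of rows per bin, for depleted rows in red and other autosomal rows in grey. Right: percent of fragments captured by length class, mean and SD over 6 libraries. Depleted rows show narrow peaks near 91 and 184 bases, and their captured share was below that of other rows in every length class shown.

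Capture by length class is a description, since low capture chose the members. Below 100 bases, capture was 0.529% ± 0.127 in members and 4.30% ± 0.659 in other rows (SD, n = 6 libraries). Between 4000 and 8000 bases it was 5.58% ± 1.54 in members and 16.7% ± 4.29 in other rows, and between 8000 and 20000 bases it was 4.15% ± 0.843 in members and 17.7% ± 4.14 in other rows. Longer rows up to this length were thus captured more often than the shortest, inside and outside the members. The ratio of members to other rows was between 0.113 and 0.398 in the classes up to 20000 bases. The longest rows stood apart. Of 295 member rows over 20000 bases, 4 were captured in any library, and of 6 over 100000 bases, 0 were. In the class from 20000 bases up, capture was 0.508% ± 0.284 in members and 11.4% ± 1.88 in other rows.

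A group of 14 domains had at least 10% of their rows at 91 or 92 bases, a bound chosen after the lengths were seen. They lay on 10 chromosomes, covered 11.7 Mb and held 8909 rows, 29.7% of the members. They contained 3210 of the 3410 member rows of these lengths (94.1%). Capture relative to the chromosome ranged from 0 to 0.587 among these 14, beside 0.231 over the 166 domains that did not reach an end. The other 182 domains had a median row length of 1664 bases, and 21.5% of their rows were under 400 bases. Of the 196 domains, 170 had no row of 91 or 92 bases.

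The domain with the most rows, chr1:186297359-190297144, is the main one of the 14. It spans 4.00 Mb and 2946 rows, of which 1186 (40.3%) were 91 or 92 bases long. In it, 20, 29 and 19 fragments were captured in SS13BN 1, 2 and 3, and 25, 10 and 20 in SS 1, 2 and 3. All 6 libraries captured under 30 of the 2946 fragments. Capture relative to chromosome 1 was 0.0657 ± 0.00807 (SD, n = 3) in SS13BN and 0.0523 ± 0.0173 (SD, n = 3) in SS. Its mean score of -7.53 was the lowest of the domains with at least 10 rows. Inside it, chr1:187415567-188330575 held 1773 fragments in a row without a capture in any library, the longest such run on the autosomes.

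Similarly low capture, beside a similar share of such rows, was found on chromosomes 15 and 17. In chr17:46115368-46528907, 49.3% of 955 rows were 91 or 92 bases long. It had 8, 2 and 4 fragments captured in SS13BN 1, 2 and 3, and 4, 1 and 3 in SS 1, 2 and 3. In chr15:53571618-54094243, 42.3% of 915 rows were 91 or 92 bases long. It had 6, 6 and 8 fragments captured in SS13BN 1, 2 and 3, and 8, 8 and 12 in SS 1, 2 and 3. The ranges of the strains overlapped in both domains. Fragments under 400 bases were left out in an alternative added after seeing the data. Then 0 of 109 longer rows of the chromosome 17 domain and 0 of 177 of the chromosome 15 domain scored -3 or less. All 829 longer rows of chr1:186297359-190297144 did. A scoring window of longer fragments alone, however, reaches far beyond a domain that has few of them. This contrast therefore cannot separate capture of the longer rows from their number in a domain, and no difference between the domains is drawn from it.

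Relative capture was higher in the other named domains with many such rows. It was 0.168 ± 0.0446 (SD, n = 6) in chr7:21216409-23017318, with 23.0% of 795 rows at these lengths, and 0.181 ± 0.0187 in chr17:58738767-59554546, with 31.4% of 723 rows. The highest share, 62.9%, belonged to chr18:38069729-38163842, which the naming rule did not pick and which was chosen after its values were seen. None of its fragments, which span 94.1 kb, was captured in any library, which in each library allows a captured share of up to 1.20%.

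The longest domains differed in their share of rows of 91 or 92 bases. The longest in bases, chr2:178437051-182931590, spans 4.49 Mb with 1356 rows. Of these, 7.23% were 91 or 92 bases long, against 0.128% of rows outside the members. This domain had 27, 38 and 24 fragments captured in SS13BN 1, 2 and 3, and 34, 26 and 26 in SS 1, 2 and 3. The domain chr1:117723228-121208732 spans 3.49 Mb with 1084 rows, a median length of 1720.5 bases and 1 row of 91 or 92 bases. It had 17, 42 and 16 fragments captured in SS13BN 1, 2 and 3, and 34, 18 and 25 in SS 1, 2 and 3. In both domains SS13BN 2, the deepest library, had the most captures. Relative to the chromosome, capture was 0.210 ± 0.0249 (SD, n = 6) and 0.192 ± 0.0376.

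Other large domains had no row of 91 or 92 bases. In chr4:166228017-169021340, with 905 rows over 2.79 Mb, relative capture was 0.194 ± 0.0110 (SD, n = 3) in SS13BN and 0.206 ± 0.0720 (SD, n = 3) in SS. In chr1:68421858-70932078, with 1033 rows over 2.51 Mb, it was 0.289 ± 0.0684 in SS13BN and 0.282 ± 0.0717 in SS. The shallowest depletion among the named domains was in chr3:22515800-24734260, with 681 rows over 2.22 Mb, at 0.436 ± 0.0832 in SS13BN and 0.457 ± 0.0261 in SS. Only 3 of its rows kept a score of -3 or less when the expectation was set by fragment length over the whole library. That expectation also dropped the captured share of the chromosome, so length and chromosome level cannot be told apart in this value. The lowest scores among named domains with no such row were in chr10:110874949-112200500, at the end of the chromosome, with a mean of -7.03, and in chr5:167233149-167896526, with -6.54. The chromosome 10 domain kept all its rows with the expectation for the fragments present. However, 250 of its 399 rows lay in cut windows, where the deposited score is lowered. Its mean score is therefore not comparable with that of the chromosome 5 domain.

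The 390 rows of the chromosome 5 domain had 6, 10 and 2 fragments captured in SS13BN 1, 2 and 3, and 3, 2 and 3 in SS 1, 2 and 3. Relative capture was 0.111 ± 0.0486 (SD, n = 3) in SS13BN and 0.0551 ± 0.00536 (SD, n = 3) in SS. SS13BN 3, at 0.0555, lay within the SS range of 0.0498 to 0.0605, so the strains overlapped.

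**Figure D4:**
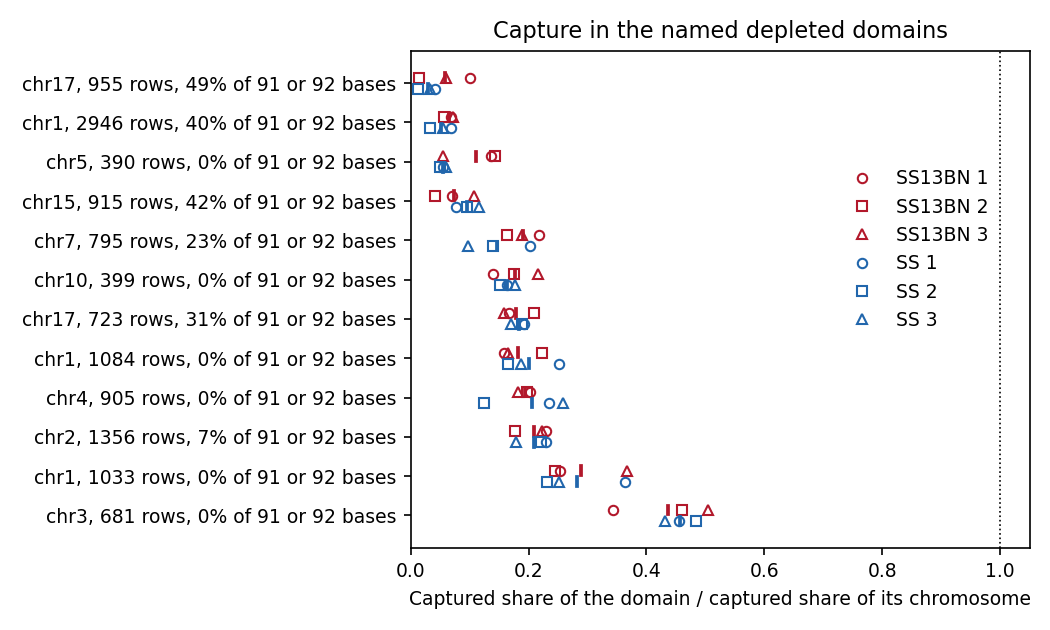
Captured share of each named domain divided by the captured share of its chromosome, per library. SS13BN libraries are red and SS libraries blue, the marker shape gives the replicate number and short bars are strain means. Labels give the chromosome, the rows and the share of rows of 91 or 92 bases. All points lie below 0.51, and the strains overlap in the domains shown.

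Capture was lower nearer a domain and close to the chromosome's level beyond the reach of the window. Over the 96 bounds of 48 domains of at least 100 rows without cut windows, relative capture was 1.01 ± 0.0586 (SD, n = 6) at 476 to 500 fragments outside the bound. It was 0.593 ± 0.0445 at 76 to 100 fragments outside and 0.415 ± 0.0438 in the last 25 fragments outside. In the first 25 fragments inside it was 0.355 ± 0.0286. The highest mean of a bin, 1.20, lay just beyond the 250 fragments that a window reaches. The lowest mean of a bin beyond that reach was 0.871, at 976 to 1000 fragments outside, so the outer level varied between bins. Member rows of neighbouring domains were left out of the outer bins. The rule itself shapes this profile near the bound, since a row's score averages over 250 fragments on either side.

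**Figure D5:**
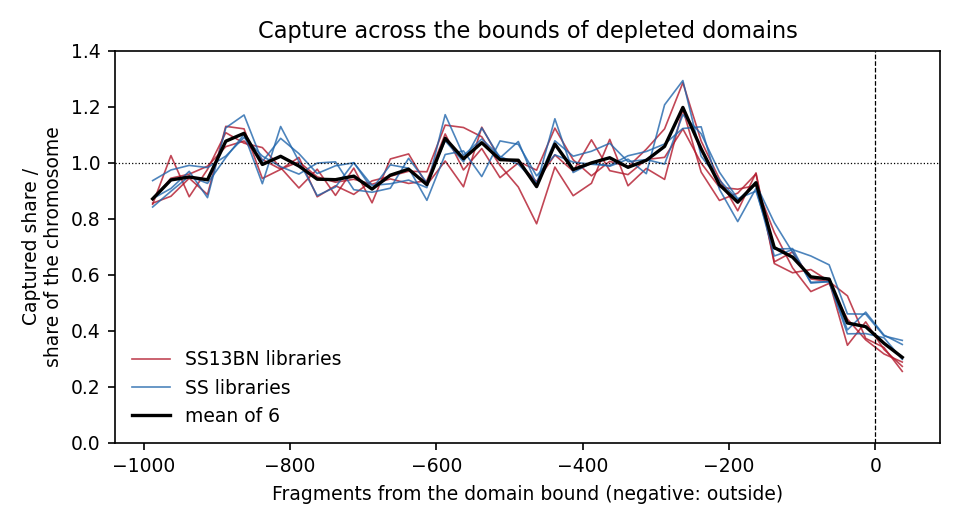
Capture relative to the chromosome by distance from the bound of a domain, in fragments, in bins of 25, for domains of at least 100 rows without cut windows. Thin lines are single libraries, red for SS13BN and blue for SS, and the black line is their mean. The mean was 0.355 just inside the bound, against 1.01 at 476 to 500 fragments outside.

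Most member fragments were never captured. In members, 88.8% of fragments were captured in no library and 0.216% in all 6, against 61.4% and 1.59% of other rows. The 65 member fragments captured in all 6 libraries lay in 39 domains, with at most 4 in a domain. Their median length was 3976 bases, against 4562 bases for other fragments captured in all libraries, and none was 91 or 92 bases long. Among fragments captured at least once, 1.93% of 3374 members and 4.12% of 263286 other rows were captured in all 6.

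The strains were compared over 500 kb windows in a limma fit on log2(captured fragments + 1), scaled to the library total, across 5296 windows of all chromosomes but 13. Of 158 windows whose centre lay in a depleted domain, 146 passed the minimum mean of 1 captured fragment. With limma, 0 of these 146 passed adjusted p 0.05, where 0% of all windows did. An unadjusted limma p under 0.05 was found in 3 of the 146 (2.05%), against 3.04% of all windows. Capture was higher in SS13BN in 62 windows and lower in 84. The median log2 difference (SS13BN minus SS) was -0.08, beside -0.004 over all windows, and the median half-width of its 95% interval was 0.85, beside 0.51 over all windows. The intervals were thus wider in these 146 windows than over all windows, and a strain difference within them was not detectable at this depth. Windows were assigned by their centre, so they could also hold many fragments outside a domain.

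The windows with the smallest p illustrate the small numbers. The window chr7:5500000-5999999, with 170 fragments, had 3, 5 and 2 captured in SS13BN 1, 2 and 3 and 8 in each SS library, so the strains did not overlap. SS13BN minus SS was -1.15 on the log2 scale (SE 0.42; limma adjusted p = 0.9996). The window chr20:57500000-57999999, at the end of the chromosome, had 5, 9 and 6 of 66 fragments captured in SS13BN and 3, 1 and 4 in SS. Here SS13BN minus SS was 1.14 (SE 0.47; limma adjusted p = 0.9996). The window chr1:150500000-150999999 had 10, 16 and 11 of 141 fragments captured in SS13BN and 10, 6 and 6 in SS, a log2 difference of 0.67 (SE 0.33; limma adjusted p = 0.9996). The chromosome 20 window was taken through chr20:57748839-57791882, which has 8 rows. All 8 lay in cut windows, and none kept -3 or less with the expectation for the fragments present. The chromosome 1 window was taken through chr1:150719449-150786355, which has 28 rows. Most fragments of the chromosome 20 and chromosome 1 windows were thus not members. None of the 3 windows passed the test.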

How the data were processed

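The members, lists and tests were chosen with earlier results of these data known. A score for each EcoRI fragment was deposited by the authors, in a table for each library. Genome build rn5 and CASAVA 1.8 are named in the submitters' processing notes, and aligner, filters and scoring program were not given in the sources used here. From the values, a score is the captured fragments in the window minus the expected number, divided by the binomial standard deviation, with the captured share taken per chromosome. Captured states were solved from the differences of neighbouring scores. The tables hold scores, so no count test was used, and limma was fitted to log2 values as planned. Domains named are the 10 with the most rows, the 5 with the lowest mean score among those of at least 10 rows and the 3 longest, with the extreme gaps and the 3 windows of smallest strain p. Windows of 500 kb took fragments by their start, the threshold was a Benjamini-Hochberg adjusted limma p of 0.05, and all tests were two-sided. The solver and the fit were tested on simulated data. Alternatives were other thresholds, windows, expectations and scalings. Chromosome 13 and gene content were not analysed here. The fit used limma 3.58.1 in R 4.3.3. Other steps used pandas 2.3.3, scipy 1.17.1 and numpy 2.4.6 under Python 3.11.15, with matplotlib 3.10.9.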

Additional observations from a re-analysis of the deposited data

Results flagged for a closer look

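Chromosome X, which the rule leaves out, had 170 of 47503 rows (0.358%) at -3 or less in all 6 libraries, against 4.21% of the autosomal rows. They formed 2 domains, and 168 of the rows lay in chrX:0-378277, at the chromosome's end, where windows are cut short.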

How the results depend on the processing

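The number of depleted rows stayed within 1.5 times of 30029 under 14 of 17 alternatives. It was 47956 with windows reaching 500 fragments to either side. In alternatives added after seeing the data, it was 19621 with at most 0.5 times the expected number in every library and 18441 with fragments under 400 bases left out. That last setting removed the shorter rows before scoring, so 18441 compares with the 19146 member rows of 400 bases or more and not with 30029. The number of domains, 196, was 310 at a threshold of -2.5, 120 at -3.5, 300 with only the 3 SS libraries, 103 with gaps shorter than a scoring window merged and 101 with at most 0.5 times the expected number. Leaving out single libraries gave 30068 to 36493 rows and 196 to 233 domains. Leaving libraries out can only add rows, so these row counts could not fall below 30029. The set of rows changed as well as the number. With windows reaching 125 fragments to either side, 59.6% of the member rows passed. With windows reaching 500 fragments, 52.6% of the rows found were members. The median length of 1114 bases was 657 with windows reaching 125 fragments to either side and 646 with at most 0.5 times the expected number. With the expectation set by fragment length over the whole library, 22029 of the member rows (73.4%) still passed, 78.9% of those in the 14 domains rich in rows of 91 or 92 bases and 71.0% of the others. This setting also dropped the captured share of the chromosome, so these shares do not reflect length alone. With the expectation taken from the library without regard to length, 84.9% of the member rows passed. With fragments under 400 bases left out, 78.1% of the 19146 longer member rows passed, 49.8% in the 14 domains and 82.5% in the others. A window of longer fragments alone reaches far beyond a domain that has few of them. Shares of rows chosen in 1 strain and read in the other stayed within 1.5 times in all alternatives run. The strain test called 0 windows in depleted domains under all 12 alternatives, with 0 to 8 at an unadjusted limma p under 0.05. With the replicate block, it called 0, with 3 at an unadjusted p under 0.05. Same-numbered libraries of the strains had correlations of their deviations of 0.0907, 0.129 and 0.0842, and differently numbered ones had -0.0951 to -0.00907. The deviations were taken from the strain means, so positive values in some pairs force negative values in others. The contrast in sign is thus partly fixed in advance. The main fit did not pair the libraries by number, although each library correlated best with its own number. Whether the numbers mark a shared preparation was not tested. Depth limits all values in members, since the libraries captured only 705 to 1377 member fragments.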

Other observations

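Runs of fragments without a capture in any library were not confined to the depleted domains. Of 278 autosomal runs of at least 50 such fragments, 115 held at least 1 member, including 79 that lay wholly in members, and 163 held none. Members were 4.21% of autosomal rows. They were chosen for low capture, so their overlap with such runs follows in part from the rule. Of the 70 runs of at least 100 fragments, 35 lay wholly in members. The fourth longest, chr8:41793142-43121237, held 390 fragments with a median length of 1861 bases and no row of 91 or 92 bases.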
